A study of Homo sapiens with 2 samples.

Results

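Annexins and S100 proteins are 2 families of calcium-responsive proteins that meet at membranes. The genes were taken from the deposited count table by symbol, as ANXA or S100A followed by a number, with S100A7A, S100B, S100P, S100G and S100Z. The rule found 32 of the 18944 genes, 12 annexins and 20 S100 genes. RNA was measured in 1 library from H1993 cells, an established human lung cancer line with MET gene amplification, whose label gives DMSO as the treatment. The other library, labelled PHA665752 after an inhibitor of the MET kinase, came from a resistant H1993 derivative. It had been selected at doses of the drug that began at 1 nM and ended at 1 µM, was maintained at the end dose, and spent 1 week free of drug before use. Both lines grew in RPMI-1640 with 10% serum, and the labels do not say whether the derivative is 1 clone or a mixed population, or whether drug was present at RNA extraction. In RNA from a whole culture, a change in the share of cells that express a gene and a change in RNA per cell cannot be told apart.

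Annexins bind negatively charged membrane lipids when calcium rises and act in vesicle fusion, membrane repair and the organisation of the cortical cytoskeleton. S100 proteins are small EF-hand proteins that dimerise and, on binding calcium, expose a surface for partner proteins, several of which are annexins. The best known joint complex pairs annexin A2 with S100A10 at the plasma membrane, where it binds activators of plasminogen. Some S100 proteins are also released and act on cell surface receptors such as RAGE and TLR4. Many S100 genes lie side by side on the long arm of chromosome 1, among genes of the epidermal barrier.

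Total counts were 16723181 for the parental library and 17086748 for the resistant one. Levels are given as CPM, counts scaled to a common library size, and ratios are resistant over parental with an exact 95% interval that covers counting error only. Genes that reached 1 CPM in either library were tested, and those whose log2 ratio was at or beyond 1 or -1 with an interval excluding 0 were called. Each group is 1 library, so no replicates check the differences and no p-value is given. The 6 epithelial markers EPCAM, KRT8, KRT18, KRT19, CDH1 and CLDN4 summed to 6350 CPM in parental and 6854 CPM in resistant cells, a sum carried by KRT8 (log2 ratio 0.35) and KRT18 (0.33). The other 4 were lower, with EPCAM at 389 and 164 CPM (-1.25, past the 2-fold rule), CLDN4 at -0.87, CDH1 at -0.69 and KRT19 at -0.63. The lung marker NKX2-1 had 70 and 101 counts, or 4.16 and 5.95 CPM. The other 5 lung markers were under 1 CPM in each library. Of these, SFTPB had 2 and 2 counts, and NAPSA, SCGB1A1 and SFTPA1 had 0 in both. Fibroblast markers summed to 20.7 and 14.7 CPM, nearly all from COL1A1, with DCN at 0. Keratinocyte markers summed to 2.32 and 2.24 CPM with KRT5 and KRT14 at 0. Within that sum KRT6A had 24 and 2 counts and KRT13 had 3 and 26, in opposite directions. Melanocyte or Schwann markers summed to 53.4 and 22.2 CPM, nearly all from ERBB3. Endothelial markers summed to 0.356 and 29.2 CPM, nearly all of the latter from CDH5, with KDR and TEK at 0.

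Of the 32 genes, 22 passed the filter, 18 of them in both libraries. In the resistant library 6 of the 22 (27.3%) were at least 2-fold higher, where 12.1% of all 12245 genes tested were. Another 5 (22.7%) were at least 2-fold lower, where 8.29% of all genes tested were. Both directions together took 11 of the 22 genes (50%), and 20.4% of all genes tested. With the deposited log2 values, 5 genes were higher by 1 or more (7.56% of all genes tested) and 4 lower (4.83% of all). The higher genes were ANXA3, ANXA5, ANXA6, S100A3, S100A4 and S100A9, and the lower ones ANXA9, ANXA10, S100A5, S100A14 and S100A16. The median log2 ratio was 0.26 over the 10 tested annexins and -0.12 over the 12 tested S100 genes, beside 0.00 over all genes tested. The median size of the log2 ratio, whatever its sign, was 1.15 over the 22 genes and 0.41 over all genes tested. ANXA6 and S100A3 passed the filter only through the resistant library, and ANXA9 and S100A5 only through the parental one, so for these 4 the filter fixed the direction though not the size.

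**Figure D1:**
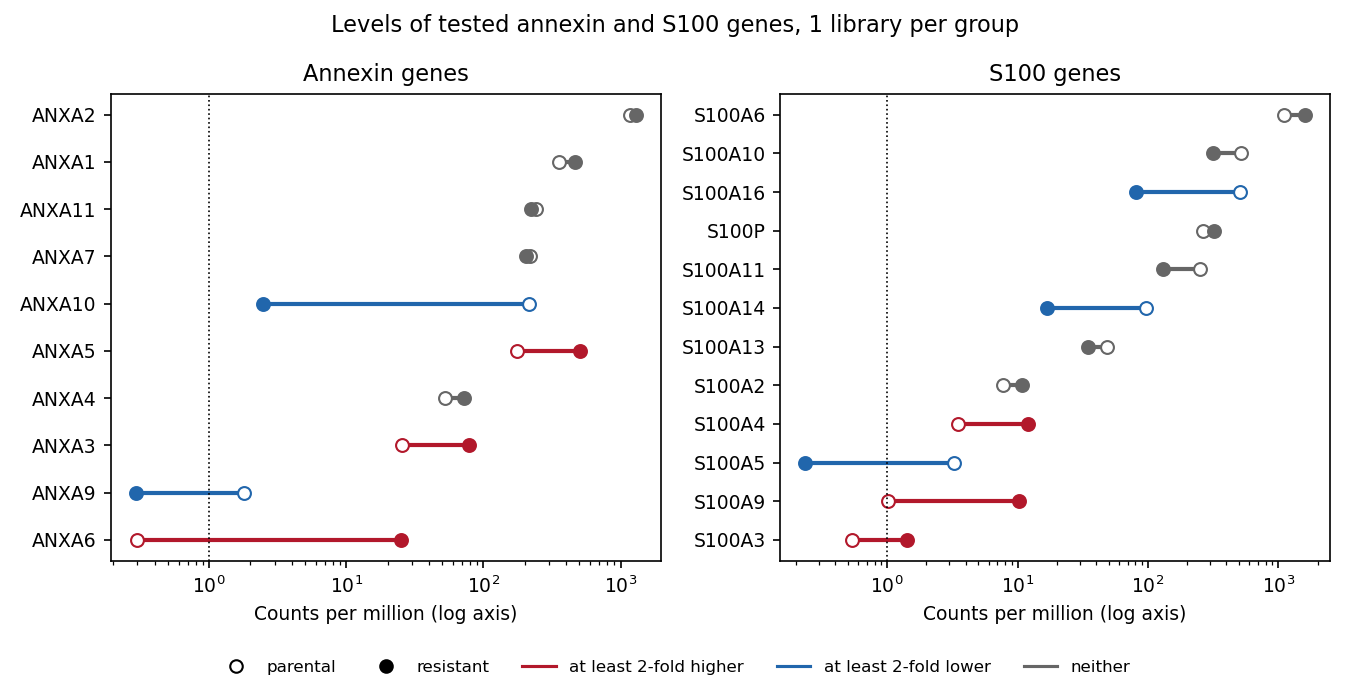
Level of each tested gene in CPM on a log axis, annexins left and S100 genes right; open circles are the parental and filled circles the resistant library, 1 library each, and the dotted line marks 1 CPM. ANXA10 fills the widest gap on the lower side, from 215 to 2.47 CPM, and ANXA6 on the higher side, from 0.297 to 24.9 CPM, while the circles of ANXA2 and S100A6, the genes furthest right, sit close together.

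Among the annexins, ANXA10 differed most. It is a member with degenerate calcium sites that is known from gastric mucosa. It had 3627 counts in parental and 42 in resistant cells, or 215 and 2.47 CPM, so that its RNA was 87.1-fold lower (64.3 to 121). ANXA9, another member without working calcium sites, had 30 and 5 counts, a 6.05-fold difference with a wide interval (2.32 to 20.0). With the deposited log2 values the difference was -0.81, short of 1.

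ANXA6, the annexin with a duplicated core that links membranes to the actin cytoskeleton, stood at 5 counts in parental and 423 in resistant cells. Its level was 83.9-fold higher (35.7 to 260) and reached 24.9 CPM. With 0.5 added to each count, its log2 ratio was 6.25. ANXA5, the phosphatidylserine-binding annexin used to stain dying cells, had 2958 and 8652 counts. It was 2.90-fold higher (2.78 to 3.03) and reached 510 CPM. ANXA3 had 430 and 1335 counts and was 3.08-fold higher (2.76 to 3.44). ANXA5 and ANXA3 were well counted in both libraries, whereas ANXA6 was near the limit of detection in the parental one.

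The other 5 tested annexins stayed within 2-fold. ANXA2, the membrane scaffold that pairs with S100A10, had 1170 and 1291 CPM, a log2 ratio of 0.14 (0.11 to 0.17). ANXA1, an anti-inflammatory annexin that signals through formyl peptide receptors, had 354 and 463 CPM, a log2 ratio of 0.39 (0.34 to 0.44). ANXA4, an annexin of epithelial membranes, had 52.2 and 71.9 CPM (0.46). ANXA7, named for promoting granule fusion, and ANXA11, which tethers RNA granules to lysosomes, had log2 ratios of -0.09 and -0.12. The intervals of all 5 exclude 0, which shows only that counting error is smaller than these differences, and the variation between cultures was not measured.

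Of the untested annexins, ANXA13, known from gut and kidney epithelium, had 0 counts in both libraries. ANXA8 had 0 and 15 counts, short of the filter. It was 4.96-fold higher with 3 counts in place of 0, and its exact log2 interval began at 1.83. Its near-identical copy ANXA8L1, outside the rule and named after its values were seen, had 34 and 356 counts. The split of reads between these copies is uncertain, and their sum went from 34 to 371 counts, 10.8-fold higher (7.61 to 15.9).

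Among the S100 genes, S100A16 and S100A14, which lie next to each other on chromosome 1 and are known from epithelia, were lower by similar factors. S100A16 had 8608 counts (511 CPM) in parental and 1384 (81.5 CPM) in resistant cells, 6.27-fold lower (5.92 to 6.64). S100A14 had 1631 counts (96.9 CPM) and 287 (16.9 CPM), 5.73-fold lower (5.05 to 6.52). The ratio of S100A14 to S100A16 counts moved by a log2 value of 0.13 with a counting interval (-0.07 to 0.33) that includes 0. The epithelial markers EPCAM, CLDN4, CDH1 and KRT19 were also lower, while KRT8 and KRT18 were not, and their part in the S100A14 and S100A16 differences was not tested. S100A5, a gene known from olfactory neurons, had 55 and 4 counts and was 13.9-fold lower (5.12 to 52.7), from a parental level of only 3.27 CPM.

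The higher S100 genes had low counts in both libraries. S100A9, a chain of the calprotectin dimer of myeloid cells and inflamed epithelia, had 17 and 173 counts, 10.1-fold higher (6.12 to 17.7), at 10.2 CPM in the resistant library. Its dimer partner S100A8 had 0 and 1 counts. S100A4, which binds non-muscle myosin and is widely used as a marker of mesenchymal and motile cells, had 59 and 203 counts, 3.41-fold higher (2.54 to 4.64). S100A3, a gene of the hair cuticle, had 9 and 24 counts, 2.64-fold higher (1.19 to 6.47), with a difference of 0.86 in the deposited log2 values, short of 1. Of the 8 myeloid markers, 6 were under 1 CPM in each library. PTPRC had 21 and 7 counts, ITGAM had 1 and 0, CSF1R had 9 and 1, LYZ had 4 and 2, and FCGR3A and MPO had 0. CD68 had 86.0 and 31.6 CPM, and CD14 had 5 and 33 counts, the 1 myeloid marker of the list that was higher beside S100A9. The list summed to 88.3 and 34.2 CPM, and its part in the S100A9 difference was not tested.

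Other S100 genes differed by less than 2-fold. S100A6, a calcium sensor of proliferating cells, had 1099 and 1594 CPM, a log2 ratio of 0.54 (0.51 to 0.56). S100P, an S100 protein common in adenocarcinomas that binds ezrin, had 265 and 319 CPM (0.27). S100A2, a keratinocyte S100 protein, had 7.72 and 10.8 CPM (0.49). On the other side, S100A11, the partner of annexin A1, had 253 and 131 CPM and was 1.92-fold lower (1.83 to 2.02), just short of the 2-fold rule. S100A10, which does not bind calcium and pairs with annexin A2, had 519 and 315 CPM, 1.65-fold lower (1.59 to 1.70). S100A13, which takes part in the release of FGF1, had 48.8 and 34.5 CPM (log2 ratio -0.50).

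S100A1, a muscle S100 protein, had 8 and 6 counts and was not tested. Its exons overlap those of S100A13 on the opposite strand in GENCODE release 29. The strand setting of the counting is not stated, so it is uncertain to which of the pair reads from the overlap were assigned. S100A7, S100A7A, S100A12, S100B, S100G and S100Z had 0 counts in both libraries. A count of 0 allows up to 0.178 CPM in parental and 0.177 CPM in resistant cells. ANXA2, S100A10 and S100A11 have processed pseudogene copies elsewhere in the genome, so their counts could hold or lack a few shared reads.

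**Figure D2:**
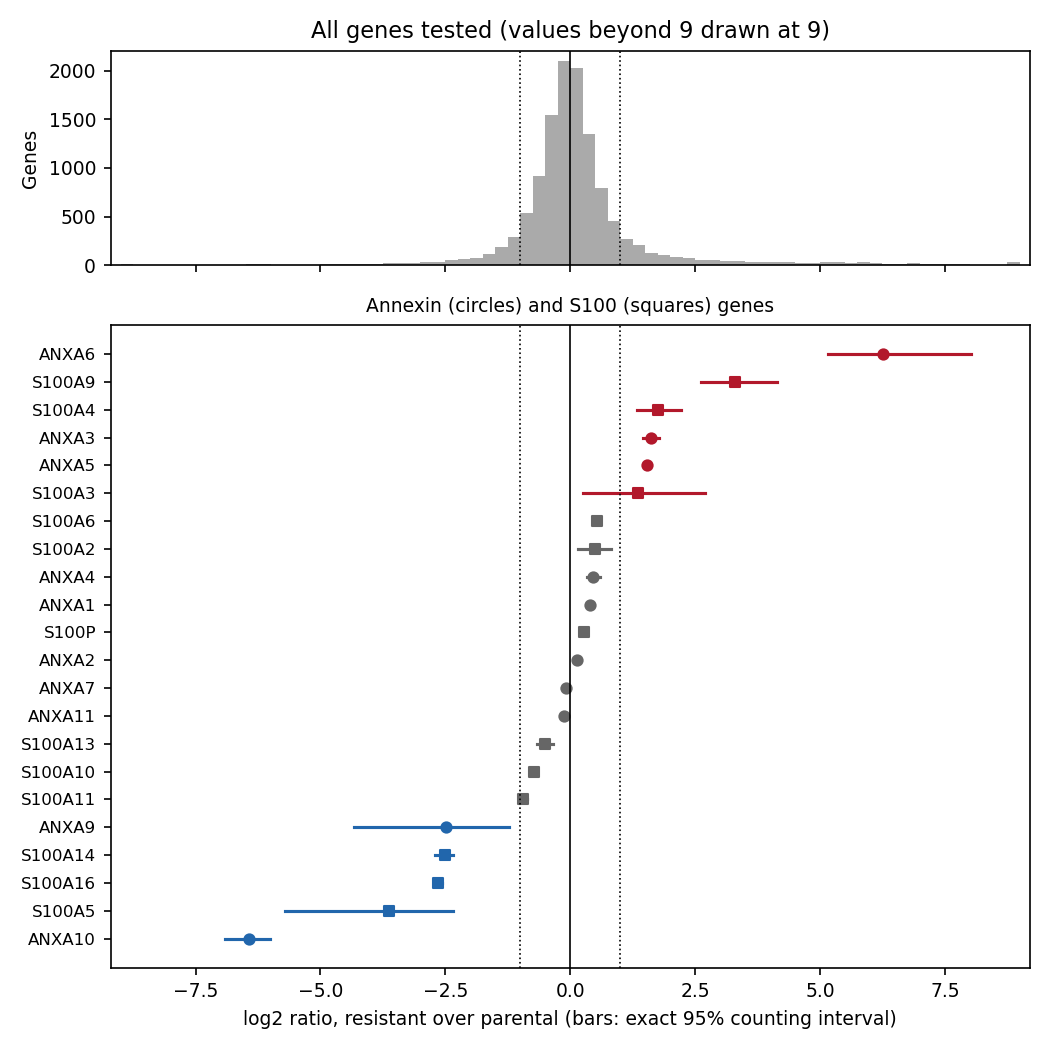
Log2 ratio of resistant over parental; the upper panel counts all 12245 genes tested and the lower panel gives each annexin (circles) and S100 gene (squares) with its exact 95% counting interval, red for at least 2-fold higher, blue for at least 2-fold lower and grey for neither. ANXA6 at 6.25 and ANXA10 at -6.43 lie in the far tails of the upper panel, and 11 of the 22 genes lie between the dotted lines at -1 and 1.

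Promoter windows of 7 called genes, chosen after their values were seen, are shown to give the range of CG dinucleotides before the start of lower genes (ANXA10, S100A16, S100A14) and higher genes (ANXA5, ANXA6, S100A9, S100A4). Each line gives the 250 bases before the annotated start, from RefSeq on GRCh38.p14, 5′ to 3′ on the gene's strand, with CG dinucleotides in capitals. Where a gene has several annotated starts, as S100A16 and ANXA6 do, the window listed first was used.
ANXA10, chr4:168092287-168092536, plus strand: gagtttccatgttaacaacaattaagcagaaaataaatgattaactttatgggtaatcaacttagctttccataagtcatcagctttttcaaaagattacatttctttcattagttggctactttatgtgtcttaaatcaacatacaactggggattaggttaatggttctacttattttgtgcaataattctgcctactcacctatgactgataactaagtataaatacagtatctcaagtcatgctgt
S100A16, chr1:153613138-153613387, minus strand: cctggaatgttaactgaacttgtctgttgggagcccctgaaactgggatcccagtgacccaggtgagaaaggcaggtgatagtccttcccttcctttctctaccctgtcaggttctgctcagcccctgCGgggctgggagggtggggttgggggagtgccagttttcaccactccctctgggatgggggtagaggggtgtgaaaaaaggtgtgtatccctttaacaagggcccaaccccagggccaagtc
S100A14, chr1:153616326-153616575, minus strand: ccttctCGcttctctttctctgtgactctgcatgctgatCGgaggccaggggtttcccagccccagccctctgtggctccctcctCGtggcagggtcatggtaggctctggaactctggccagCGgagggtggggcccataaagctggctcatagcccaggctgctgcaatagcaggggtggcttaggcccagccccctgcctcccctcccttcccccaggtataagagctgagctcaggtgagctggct
ANXA5, chr4:121696981-121697230, minus strand: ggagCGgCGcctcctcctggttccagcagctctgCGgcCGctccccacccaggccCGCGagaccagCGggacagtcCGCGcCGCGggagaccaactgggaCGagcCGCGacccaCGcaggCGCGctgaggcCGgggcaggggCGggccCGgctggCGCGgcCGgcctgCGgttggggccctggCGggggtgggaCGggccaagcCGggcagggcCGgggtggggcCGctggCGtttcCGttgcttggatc
ANXA6, chr5:151157780-151158029, minus strand: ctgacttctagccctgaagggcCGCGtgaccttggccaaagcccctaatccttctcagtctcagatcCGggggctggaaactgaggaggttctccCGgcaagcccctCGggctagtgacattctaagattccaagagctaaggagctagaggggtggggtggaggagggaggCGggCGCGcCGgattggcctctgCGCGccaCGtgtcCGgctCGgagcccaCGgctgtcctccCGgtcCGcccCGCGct
S100A9, chr1:153357604-153357853, plus strand: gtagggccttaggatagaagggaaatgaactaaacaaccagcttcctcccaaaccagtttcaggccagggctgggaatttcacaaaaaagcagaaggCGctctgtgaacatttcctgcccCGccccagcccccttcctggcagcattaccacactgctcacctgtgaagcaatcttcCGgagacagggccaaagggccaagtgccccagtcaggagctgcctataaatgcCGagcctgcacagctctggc
S100A4, chr1:153545807-153546056, minus strand: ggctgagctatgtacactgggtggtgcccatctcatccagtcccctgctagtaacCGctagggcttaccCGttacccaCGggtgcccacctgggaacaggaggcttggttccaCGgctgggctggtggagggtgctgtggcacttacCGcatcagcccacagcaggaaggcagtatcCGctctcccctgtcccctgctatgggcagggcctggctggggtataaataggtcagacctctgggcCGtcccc
The windows of ANXA10, S100A16 and S100A14 hold 0, 1 and 4 CG dinucleotides, those of ANXA5 and ANXA6 hold 31 and 19, and those of S100A9 and S100A4 hold 4 and 7. Over all 5 lower genes the count ran from 0 to 5, over the 6 higher genes from 4 to 31 and over the 11 genes that were neither from 0 to 36. The ranges overlap: S100A3, which was higher, also holds 4, and ANXA1, which was neither, holds 0. Among the 10058 tested genes with a window (82.1% of all tested), the median count was 19 for lower, 18 for higher and 22 for the remaining genes. The low counts of the 5 lower genes describe these genes only, since lower genes as a whole had a median of 19.

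Windows were found for 29 of the 32 genes, and 5 motifs were searched in them, overlaps allowed. The letters TATAAA, read on the gene's strand, occur in 12 of the 29 windows and in 7.17% of the 27305 windows of the table, coding and non-coding genes together. In ANXA10 they start 29 bases before the annotated start, and they lie at the same distance in S100A9 and 31 bases before it in S100A4, ANXA1 and ANXA2. The distance is 28 bases in S100P, S100A7 and S100A7A, the last 2 with near-identical windows, and 32 in S100G. In S100A12, S100Z and ANXA11 it is 8, 11 and 61 bases. The E-box letters CAGGTG, on both strands, occur in 11 of 29 windows (17.5% of all), among them S100A14, S100A16, S100A4 and S100A9. The AP-1 letters TGANTCA occur in 4, ANXA2, S100A2, S100A3 and S100A12 (6.60% of all). The TEAD letters GGAATG occur in 1, S100A16 (11.9% of all), and the antioxidant response letters TGACNNNGC in 2, S100A13 and S100A14 (11% of all). The E-box letters stand in windows of both higher and lower genes.

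Along chromosome 1, the S100 genes held short runs with ratios of the same sign as well as direct neighbours with opposite signs. From S100A10 to S100A1 the RefSeq gene order places 61 genes of the table, 16 S100 genes and 45 others, of which 30 had 0 counts in both libraries. Read in order, S100A9 (3.30), S100A6 (0.54), S100A5 (-3.64), S100A4 (1.76), S100A3 (1.35), S100A2 (0.49), S100A16 (-2.65), S100A14 (-2.52) and S100A13 (-0.50) followed one another in log2 ratio, with only untested S100 genes between them. S100A10 (-0.72) and S100A11 (-0.94), at the far end, were both lower by under 2-fold. The 10 tested genes before S100A10 had a median of -0.43 with 3 called lower and 0 higher. The 10 after S100A1 had a median of 0.39 with 1 called higher and 0 lower. Over all genes tested, 12.1% were called higher and 8.29% lower. S100A10 with S100A11, S100A4 with S100A3, and S100A16 with S100A14 shared a sign, and S100A5 stood opposite to both its neighbours, S100A6 and S100A4.

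**Figure D3:**
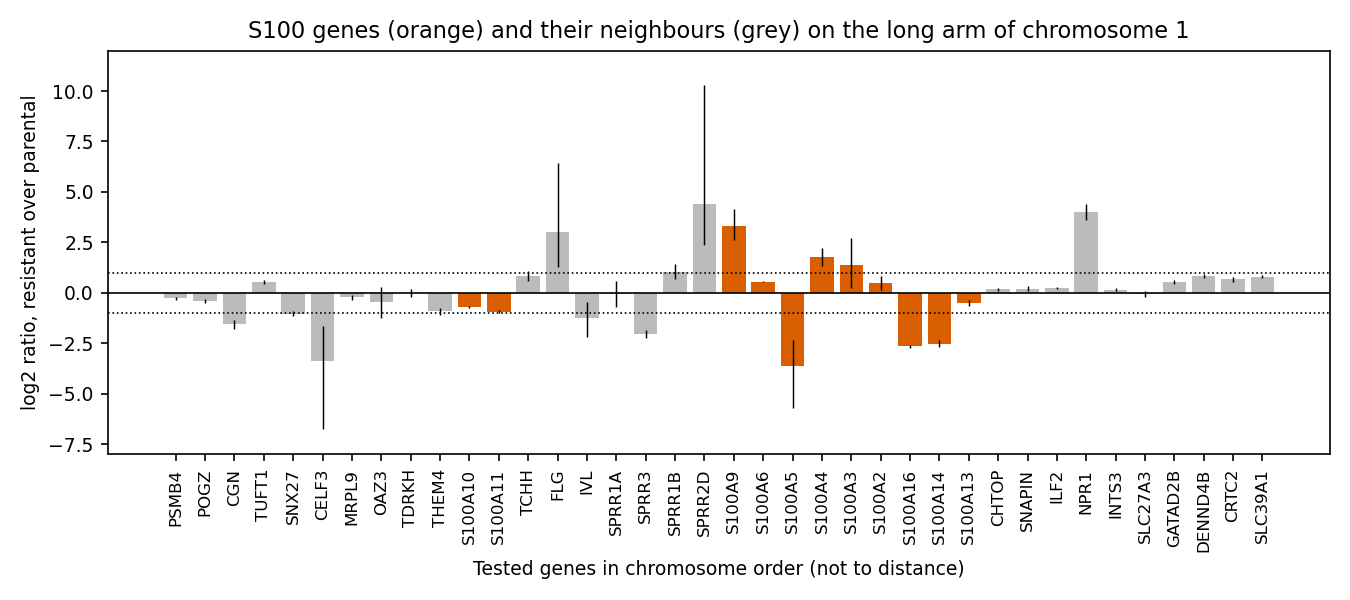
Log2 ratio of resistant over parental for tested genes in RefSeq order along the long arm of chromosome 1, S100 genes in orange and others in grey, with exact 95% counting intervals; dotted lines mark -1 and 1, and spacing is by order, not distance. S100A16 and S100A14 share a direction, and the S100 bars as a whole point both ways, from 3.30 for S100A9 to -3.64 for S100A5.

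Of the 7 tested epidermal differentiation genes that share this stretch, 3 were at least 2-fold higher and 2 lower, with a median of 0.81 (all genes tested: 12.1% and 8.29%). SPRR3, a cornified envelope gene with the highest CPM of them, had 70.9 and 17.2 CPM and was 4.12-fold lower (3.62 to 4.70). IVL, the envelope protein involucrin, had 41 and 17 counts and was 2.43-fold lower (1.35 to 4.57). SPRR2D had 1 and 31 counts and FLG, the skin barrier protein filaggrin, had 2 and 20, both higher and both measured only through the resistant library.

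The annexins lie apart from each other, and the genes around those called are given as a description, beside 12.1% higher and 8.29% lower over all genes tested. ANXA10, on chromosome 4, had 10 nearest tested neighbours (5 on each side) with a median log2 ratio of 0.43, of which 1 was called lower and 1 higher. Around ANXA6, on chromosome 5, the median was 0.49, with 4 of 10 called higher, 0 lower and a highest value of 4.26. ANXA5, also on chromosome 4, had neighbours with a median of 0.54, and 4 of 10 were called higher. ANXA3, on the same chromosome, had a neighbour median of -0.06, with 3 of 10 called higher and 1 lower. Around ANXA9, on chromosome 1, the median was -0.38, with 2 of 10 called lower and 0 higher.

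Levels can be compared between genes only per length. The deposited log2 values, raised as powers of 2 with 1 taken off, were used as a per-length level. Each was divided by the gene's count scaled to the total counts of its library, not by the CPM given above. This left 1 factor per gene that was nearly the same in both libraries. Any scaling fixed per gene would leave such a factor, so this does not show that the factor is gene length. Over 9483 genes with at least 100 counts in each library, the parental factor was 0.986 of the resistant one at the median (5th to 95th percentile 0.967 to 0.998). The CPM given above also carries library scaling factors of 1.007 (parental) and 0.993 (resistant). The division left these out, so the value of 0.986 depends on that choice. Whether the authors scaled by gene length, and how, is not stated. Across 9317 genes the length this factor would imply and the median GENCODE coding transcript length had a Spearman rho of 0.53. This rho is a description across genes that share both libraries. Per-length is therefore only a name for this scale. Ranks, family shares and level ratios between genes depend on the factor being length. On this per-length scale S100A6 ranked 14 of 18944 genes in parental and 5 in resistant cells. ANXA2 ranked 87 and 81, S100P 86 and 71, S100A11 115 and 213, S100A10 122 and 190, and S100A16 123 and 939. ANXA5 went from rank 684 to 191 and passed ANXA1, which went from 290 to 212. On this scale S100A6 was the leading gene of both families in both libraries, while S100A16 dropped far down the order. In parental CPM, ANXA2 (1170) stood above S100A6 (1099).

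The make-up of each family shifted around its leading gene. S100A6 made up 43.5% of the summed per-length level of the S100 genes in parental and 62.0% in resistant cells, and S100P 16.5% and 19.6%. S100A16 went from 11.2% to 1.74%, S100A11 from 12.3% to 6.30% and S100A10 from 11.5% to 6.83%. Among annexins, ANXA2 held 51.0% and 48.3% and ANXA1 15.8% and 17.7%. ANXA5 went from 7.47% to 18.5% and ANXA10 from 10.3% to 0.101%. In raw counts the annexins together took 0.247% of the parental library (exact 95% interval 0.245 to 0.250%) and 0.285% (0.283 to 0.288%) of the resistant one. S100 genes together took 0.283% (0.280 to 0.285%) and 0.251% (0.249 to 0.254%). On the per-length scale the summed level was 1629 and 1906 for annexins, and 5132 and 5272 for S100 genes. The S100 total was thus lower in counts and higher on this scale in the resistant library.

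**Figure D4:**
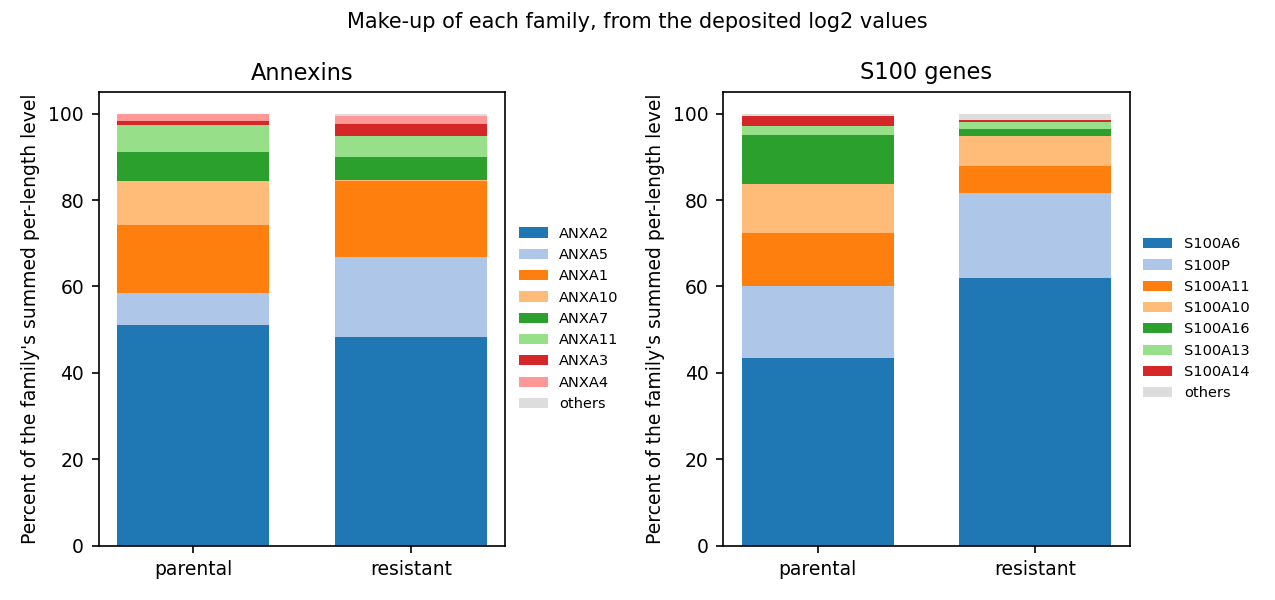
Percent of each family's summed per-length level, from the deposited log2 values, in the parental and resistant library (1 each); genes under 1% in both are pooled as others. In annexins the ANXA10 band falls from 10.3% to 0.101% while ANXA5 widens from 7.47% to 18.5%, and in S100 genes the S100A6 band widens from 43.5% to 62.0%.

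In the S100 and annexin pairs given here, the count ratio of the partners moved, with counting intervals that exclude no change. The S100A14 to S100A16 ratio, in contrast, moved by a log2 value of 0.13 with an interval that includes 0. How far the ratio of 2 unrelated genes moves was not computed. For single genes the median size of the log2 ratio was 0.41 over all genes tested. The per-length level of S100A10 was 0.712 of that of ANXA2 in parental and 0.391 in resistant cells, and the count ratio was 1.82-fold lower (approximate 95% counting interval 1.75 to 1.89). S100A11 stood at 2.46 times ANXA1 in the parental library and 0.988 times in the resistant one, a 2.51-fold lower ratio (2.36 to 2.67). In both pairs the S100 partner was lower and the annexin slightly higher, each within 2-fold. For S100A6 and its partner ANXA11 the ratio went from 22.4 to 35.4, 1.57-fold higher (1.50 to 1.65). S100A11 was also paired with ANXA6, and that count ratio was 161-fold lower (66.7 to 390). It rests on 5 parental counts of ANXA6.

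In the plasmin system and the scaffolds of the annexin A2 complex, 4 of 11 tested genes were called, 3 higher and 1 lower, and the median log2 ratio was 0.23 (over all genes tested, 12.1% were higher and 8.29% lower). SERPINB2, PLAU and PLAT passed the filter through 1 library only, which fixed their direction. SERPINB2, a serpin that inhibits plasminogen activators, had 0 and 48 counts, 15.9-fold higher with 3 counts in place of 0 (log2 interval from 3.63). The activator genes were scarce: PLAU had 10 and 28 counts, 2.78-fold higher (1.31 to 6.41), and PLAT 18 and 7, 2.59-fold lower (1.03 to 7.34). ENO1, an enolase that also binds plasminogen with the highest CPM of the list, had a log2 ratio of 0.22.

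Among receptors of released S100 proteins and annexin A1, 1 of 7 tested genes was higher and 2 lower, beside 12.1% and 8.29% of all genes tested, and the median was -0.09. Both lower genes, TLR4 and CD36, passed the filter only through the parental library, which fixed their direction. MCAM, an adhesion receptor reported to bind calprotectin, had 46 and 958 counts, 20.7-fold higher (15.4 to 28.4). TLR4, the lipopolysaccharide receptor that also responds to calprotectin, had 54 and 1 counts, 54.4-fold lower (9.37 to 2190). CD36, a scavenger receptor, had 17 and 5 counts, 3.43-fold lower (1.21 to 11.9). BSG, with the highest CPM of the list, had 430 and 403 CPM.

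Over all genes tested, 20.4% were called and the median size of the log2 ratio was 0.41. All 20 tested intracellular binding partners of S100 proteins stayed within the 2-fold rule, with a median of 0.01 and a median size of 0.25. MYH9, the non-muscle myosin that S100A4 binds, had the highest CPM, at 1352 and 1298 CPM. S100PBP, the binding protein of S100P, had 34.3 and 40.3 CPM. ANXA2R, outside the rule and named after its values were seen, had 31 and 60 counts (log2 ratio 0.93).

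The 18 tested ferlins, copines, calpains and related membrane proteins held 4 higher and 3 lower genes (median log2 ratio -0.07), where 12.1% and 8.29% of all genes tested were called. Of these 18 genes, 4 were tested through 1 library only, among them DYSF, MCTP2 and CPNE4. DYSF, the membrane repair protein dysferlin that works with annexins in muscle, had 10 and 727 counts, 72.1-fold higher (39.0 to 151). MCTP2 had 0 and 188 counts, 62.1-fold higher with 3 counts in place of 0 (log2 interval from 5.65). CPNE4, a copine, had 51 and 0 counts, 17.1-fold lower on the same basis (log2 interval up to -3.75). The stomach calpain gene CAPN8 had 142 and 17 counts, 8.42-fold lower (5.08 to 14.9), and MYOF, with the highest CPM, had a log2 ratio of -0.39. The 21 tested EF-hand genes outside the S100 family held 3 of each (14.3% in each direction, median -0.17), on the higher side a share near the 12.1% of all genes tested. TESC (1.43 and 31.9 CPM), RCN3 (1.60 and 16.8 CPM) and RCN1 (89.9 and 269 CPM), the last 2 being calcium binders of the secretory pathway, were higher. CALB2, the calcium buffer calretinin, had 40.8 and 11.4 CPM and was 3.58-fold lower (3.05 to 4.23), while CALM2, a calmodulin gene with the highest CPM, had a log2 ratio of -0.12.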

How the data were processed

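RNA from 1 parental and 1 resistant library was analysed. The authors deposited raw counts per gene symbol, per the file headers, and 1 normalized log2 value per gene and library, whose method is not given in the sources used here. The submitters' processing notes name FastQC and the aligner STAR without versions; GRCh38 and hg19 are both named without roles, and the counter, its annotation and its strand setting are not stated. Libraries were scaled with edgeR's TMM method (edgeR 4.0.16, R 4.3.3) to effective sizes of 16834058 and 16974207. Log2 ratios used 0.5 added to each count, with exact 95% conditional binomial (Clopper-Pearson) intervals in scipy 1.17.1; the ratio code was checked on simulated data. Reads are not independent molecules, so intervals and floors cover counting error only. Folds are ratios of scaled counts with nothing added, so at low counts they differ from the log2 ratios. TLR4, at 54 and 1 counts, has a log2 ratio of -5.20 beside its 54.4-fold difference. A fold against 0 counts used 3 counts per library in place of 0. Intervals of ratios between 2 genes used the normal approximation on the log scale.

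Members and lists were chosen with earlier results of these data known. All members are accounted for; from other lists at most the 4 called genes with the largest ratios and the gene with the highest mean CPM are named, and 1 such gene is not reported here. List symbols absent from the table were matched through RefSeq synonyms. DESeq2 1.42.0 size factors, library totals, other filters, 2 added counts, the deposited log2 values and stricter rules were tried as alternatives.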

Additional observations from a re-analysis of the deposited data

How the results depend on the processing

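Under other scaling, filters and added counts, every tested annexin and S100 gene that had a value kept its direction and its side of the 2-fold rule. With the deposited log2 values 20 of 22 did, and ANXA9 (-0.81) and S100A3 (0.86) no longer reached a difference of 1. Of the called genes named from other lists, TLR4 (-0.62), CD36 (-0.39), PLAU (0.43) and PLAT (-0.25) also fell short of 1. So did CPNE4 (-0.79), FLG (0.11) and IVL (-0.56), while the other called genes named from those lists reached it. Requiring at least 5 CPM left no value for ANXA9, S100A3 and S100A5, which gave 3 lower genes instead of 5. A 4-fold rule gave 2 higher genes, ANXA6 and S100A9, instead of 6, and the same 5 lower genes. The annexin median was 0.39 with at least 5 CPM, with no filter beyond 1 count, and with ANXA8L1 counted with ANXA8, the last an alternative chosen after seeing the data. These 3 settings change which annexins enter the median. The S100 median lay between -0.13 and -0.07 under all alternatives. Depth limits S100A1, S100A3, S100A5, S100A8, ANXA8 and ANXA9, each under 60 counts in both libraries. No paired analysis was possible because each group has 1 library.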
